A study of Gallus gallus with 10 samples.

Results

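The nucleolus is where ribosomes begin: RNA polymerase I copies the ribosomal DNA into one long precursor, small nucleolar particles and the small-subunit processome fold, modify and cut it, and further factors assemble the large subunit. Growing cells of an embryonic tissue make ribosomes at a high rate, and the genes for this machinery are known to rise and fall together with growth. The genes described here are the nucleolar factors of ribosomal RNA processing and RNA polymerase I. They were taken by symbol, from the families NOP, NOL, UTP, RRP, NOC, MPHOSPH, IMP and POLR1 and from 15 further names, of which 14 were listed; no value is given for FBL, which encodes fibrillarin. NOL4, MPHOSPH8 and MPHOSPH9 met the pattern but are not known as ribosome factors and were left out. This gave 54 genes of 12464 in the table, in 11 groups by their known complex or role. All 54 had a mean above 10 and so entered the test.

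The samples, labelled optic cup, are retinas of 5 wild-type Dekalb white chicken embryos. One eye of each embryo had its lens removed through a dorsal slit at Hamburger and Hamilton stage 23, about embryonic day 4, and both retinas were collected 6 h later. The series thus holds 5 operated and 5 unoperated (control) retinas, paired by embryo, with polyadenylated RNA sequenced from each. The question behind it is which genes of the early retina are under control of the lens. Loss of the lens and the opening of the eye cannot be told apart, because the control eyes had neither. Values are the authors' normalised read counts. The libraries held an effective 18671000 to 26005000 reads, and the lowest value of any of the 54 genes in any library rested on about 223 reads. Changes are log2(normalised count + 1), operated minus control within an embryo, by limma with the embryo as a block, with Benjamini-Hochberg adjustment over 9076 genes and a threshold of 0.05. In bulk tissue a smaller share of cells that express a gene and less RNA per cell cannot be told apart.

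Most of the nucleolar genes were lower in the operated retina, and none was called higher. Of the 54 genes 41 fell, 0 rose and 13 did not pass. At an unadjusted p under 0.05 the counts were 47 lower and 0 higher, against 1813 lower and 1586 higher of all 9076 tested genes. Among all 9076 tested genes limma called 12.3% lower and 10.6% higher. The median log2 change was -0.31 for the 54 genes and -0.0013 for all tested genes. The falls were modest, from -0.21 for NOL9 to -0.91 for NPM3, and in 4 of the 41 genes that fell (NPM3, NOP16, RSL1D1 and NAT10) the change was over 1.5-fold. The estimate was negative for 53 of the 54 genes, BOP1 being the exception. Within embryos 40 of the 54 genes were lower in 5 of 5 pairs, against 17.2% of all tested genes, and 0 were higher in 5 of 5, against 14.7%. For 26 genes every operated library lay below every control library, against 7.27% of all tested genes. For 0 genes every operated library lay above, against 6.41%.

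**Figure D1:**
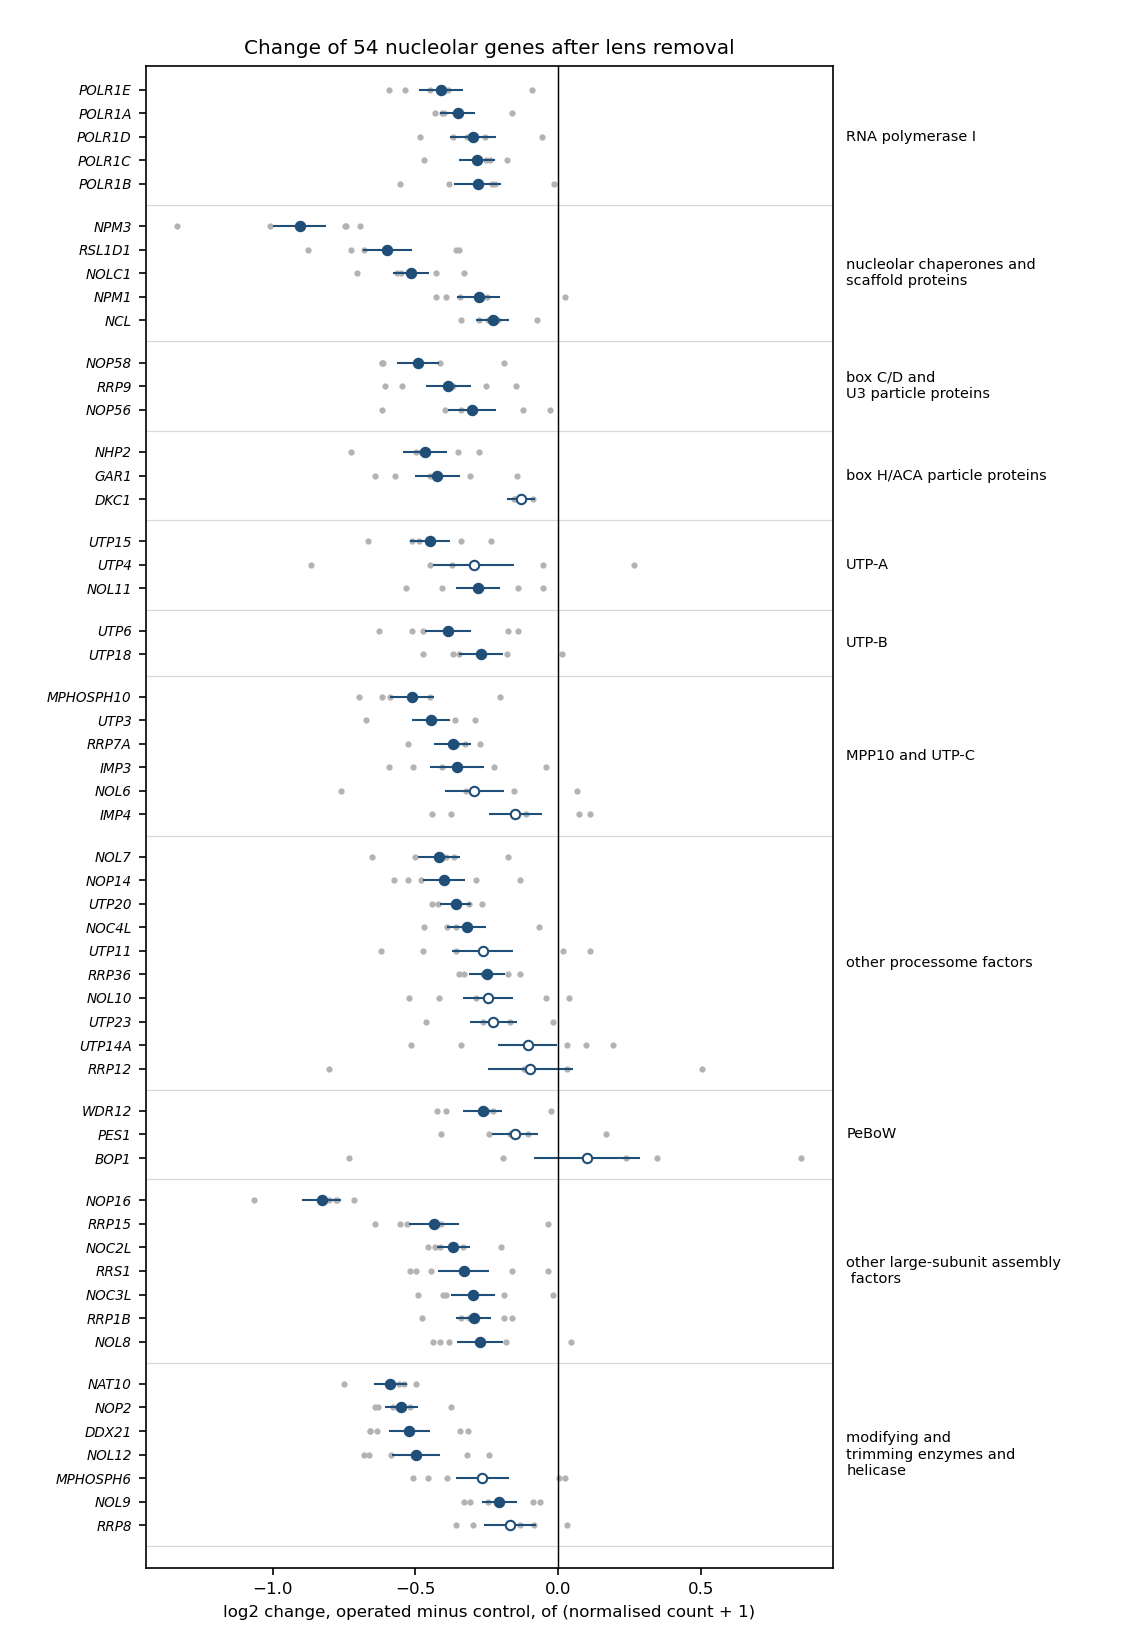
Log2 change of each of the 54 genes, operated minus control, grouped by complex. Large points are limma estimates with their SE (filled where adjusted p is under 0.05, open where not), and grey points are the 5 embryos. All estimates but that of BOP1 lie left of 0, and NPM3 and NOP16 lie farthest left.

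RNA polymerase I itself is built of a large core shared in part with the other nuclear polymerases. All 5 subunit genes listed fell. POLR1A, the largest subunit, stood at 124, 139, 139, 124 and 126 in the control retinas of embryos 1 to 5 and at 93.1, 105, 108, 91.4 and 112 in their operated retinas. No operated library reached the lowest control library (log2 change -0.35, SE 0.06, adjusted p = 0.005). POLR1B, which completes the catalytic centre, was at 61.7, 63.3, 56.2, 58.3 and 62.4 in controls and 41.7, 53.7, 55.6, 44.5 and 53.4 after lens removal (log2 change -0.28, SE 0.082, adjusted p = 0.038). Its operated libraries all lay below the controls, in embryo 3 by the narrowest margin. POLR1C, an assembly subunit shared with RNA polymerase III, had 63.4, 66.8, 66.4, 68.8 and 59.4 in controls and 53.1, 56.5, 54.4, 49.4 and 52.4 in operated retinas (log2 change -0.28, SE 0.064, adjusted p = 0.015), again without overlap. POLR1D, its partner in that assembly, changed by -0.30. POLR1E, part of the polymerase I subcomplex that aids initiation, was at 129, 79.8, 83.3, 143 and 134 in controls and at 122, 60.8, 57.1, 94.4 and 98.3 after surgery (log2 change -0.41, SE 0.078, adjusted p = 0.0077). It was lower in each operated eye, and the groups overlapped, with embryos 2 and 3 low in both eyes.

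The nucleolar chaperones and scaffold proteins gave 5 of 5 genes lower. NPM3, a relative of the nucleolar chaperone nucleophosmin, stood at 179, 215, 206, 207 and 208 in the controls and 88.4, 132, 122, 81.7 and 124 in the operated retinas. Its level fell by 46.6% (log2 change -0.91, SE 0.094, adjusted p = 0.00049), and the highest operated library was well below the lowest control. NPM1, nucleophosmin, was at 2916, 3447, 3587, 3217 and 2823 in controls and 2964, 2628, 2669, 2532 and 2374 after lens removal (log2 change -0.28, SE 0.075, adjusted p = 0.03). It was lower in 4 of 5 pairs and slightly higher in the operated eye of embryo 1. NCL, nucleolin, which binds the nascent precursor, had 1916, 2013, 1828, 1888 and 2645 in the controls and 1655, 1659, 1737, 1593 and 2089.9 in the operated retinas (log2 change -0.23, SE 0.059, adjusted p = 0.024). Both retinas of embryo 5 were the highest of their group, and the groups overlapped although the operated eye was lower in every pair. NOLC1, a chaperone of small nucleolar particles, was at 384, 465, 479, 427 and 405 in controls and 285, 314, 327, 262 and 322 in operated retinas (log2 change -0.52, SE 0.064, adjusted p = 0.0012), with no overlap. RSL1D1, a nucleolar protein with a ribosomal L1 domain, went from 161, 209, 209, 196 and 152 in controls to 126, 129.8, 126, 106 and 118 in operated retinas (log2 change -0.60, SE 0.086, adjusted p = 0.0024), also with no overlap.

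Small nucleolar particles guide modification of ribosomal RNA, and the box C/D particle of U3 RNA is also needed to cut it. NOP58, a core protein of box C/D particles, stood at 410.5, 499.7, 506, 475 and 399 in controls and 360.1, 326, 329, 309.7 and 299 in operated retinas (log2 change -0.49, SE 0.074, adjusted p = 0.003), and the groups were separate. Its partner NOP56 was at 218, 218, 209, 206 and 247 in controls and 142, 200.1, 204, 156 and 195 in operated retinas (log2 change -0.30, SE 0.084, adjusted p = 0.034), with the operated libraries of embryos 2 and 3 just below the lowest control. RRP9, which binds U3 RNA, was at 60.02, 59.4, 57.8, 62.2 and 80.8 in controls and 40.8, 49.6, 52.2, 40.5 and 62.4 in operated retinas (log2 change -0.38, SE 0.08, adjusted p = 0.011), lower in each pair with overlapping groups. So 3 of 3 box C/D genes fell, and 2 of 3 genes of the box H/ACA particles, which turn uridine into pseudouridine. NHP2 was at 54.6, 57.9, 56.2, 57.3 and 50.5 in controls and 38.8, 47.6, 43.9, 34.3 and 35.5 after surgery (log2 change -0.47, SE 0.077, adjusted p = 0.0043). GAR1 stood at 104, 115, 131, 111 and 100.3 in controls and 83.7, 77.4, 83.6, 81.2 and 90.6 in operated retinas (log2 change -0.42, SE 0.079, adjusted p = 0.0071), and for both genes the groups did not overlap. DKC1, the pseudouridine synthase dyskerin, had 353, 361, 362, 346 and 383 in controls and 324, 331, 341, 312 and 344 after lens removal. All its operated libraries lay below all controls, yet the change was small and did not pass (log2 change -0.13, SE 0.048, adjusted p = 0.084).

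The small-subunit processome gathers on the nascent precursor in modules. UTP-A and UTP-B bind it first, and 4 of their 5 listed genes fell. UTP15 of UTP-A was at 148, 83.9, 101, 164 and 138 in controls and 125, 58.5, 63.2, 117 and 108 in operated retinas (log2 change -0.45, SE 0.071, adjusted p = 0.0037), lower in every pair. NOL11 of the same module stood at 98.1, 121, 115, 103 and 88.2 in controls and 94.7, 91.1, 79.4, 85.5 and 79.96 in operated retinas (log2 change -0.28, SE 0.078, adjusted p = 0.032), also lower in each pair. In both genes the ranges of the groups overlapped. UTP4 was at 38.9, 32.6, 29.1, 34.3 and 50.2 in controls and 20.9, 31.4, 35.2, 26.3 and 36.5 in operated retinas. It was higher in the operated eye of embryo 3 and did not pass (log2 change -0.30, SE 0.14, adjusted p = 0.16). Of UTP-B, UTP6 was at 151, 169.6, 194, 161 and 126 in controls and 137, 119, 125, 115 and 111 in operated retinas (log2 change -0.39, SE 0.081, adjusted p = 0.012). UTP18 was at 88.6, 90.8, 92.4, 88.5 and 78.6 in controls and 78.2, 71.1, 66.4, 68.4 and 79.3 in operated retinas (log2 change -0.27, SE 0.077, adjusted p = 0.036), lower in 4 pairs and about level in embryo 5.

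In the MPP10 module and UTP-C, which join later, 4 of 6 genes fell. MPHOSPH10, the founding member of the MPP10 complex, was at 142, 169, 184, 156 and 147 in controls and 124, 109.7, 113, 104 and 107 after lens removal (log2 change -0.51, SE 0.076, adjusted p = 0.0029). UTP3, its binding partner, was at 146, 148, 167, 148 and 169 in controls and 119, 108, 122, 115 and 106 in operated retinas (log2 change -0.44, SE 0.066, adjusted p = 0.0028). Neither gene had overlapping groups. RRP7A of UTP-C stood at 40.8, 44.9, 55.5, 49.9 and 45.8 in controls and 33.6, 34.9, 44.01, 34.3 and 35.2 in operated retinas (log2 change -0.37, SE 0.065, adjusted p = 0.0056), with 1 operated library, that of embryo 3, inside the control range. IMP3, which in yeast helps U3 to pair with the precursor, fell by 0.35 on the log2 scale, while IMP4 (-0.15, adjusted p = 0.27) and NOL6 (-0.29, adjusted p = 0.071) did not pass.

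Among 10 other processome factors 5 fell and 5 did not pass. UTP20, a very large scaffold protein, was at 224, 254, 249, 233 and 238 in controls and 165, 198, 207, 174 and 192 in operated retinas (log2 change -0.36, SE 0.053, adjusted p = 0.0028). NOL7 stood at 61.7, 81.8, 78.99, 84.6 and 79.7 in controls and 54.5, 57.6, 61.1, 53.5 and 60.5 in operated retinas (log2 change -0.42, SE 0.075, adjusted p = 0.0064). NOP14, a factor of small-subunit maturation, was at 149.6, 187, 191, 176 and 149.7 in controls and 136, 125, 132, 126 and 122 in operated retinas (log2 change -0.40, SE 0.074, adjusted p = 0.0069). None of these had overlapping groups. NOC4L, the partner of NOP14, and RRP36 fell by 0.32 and 0.25 on the log2 scale. UTP11, UTP23 and NOL10 had estimates of -0.26, -0.23 and -0.25 that missed the threshold (adjusted p = 0.11, 0.078 and 0.074). UTP14A and RRP12 had estimates near -0.1 (-0.11 and -0.10, adjusted p = 0.49 and 0.67). RRP12, an export factor, was lower in the operated eye of embryo 1 (56.3 and 31.8) and higher in that of embryo 3 (48.1 and 68.7).

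**Figure D2:**
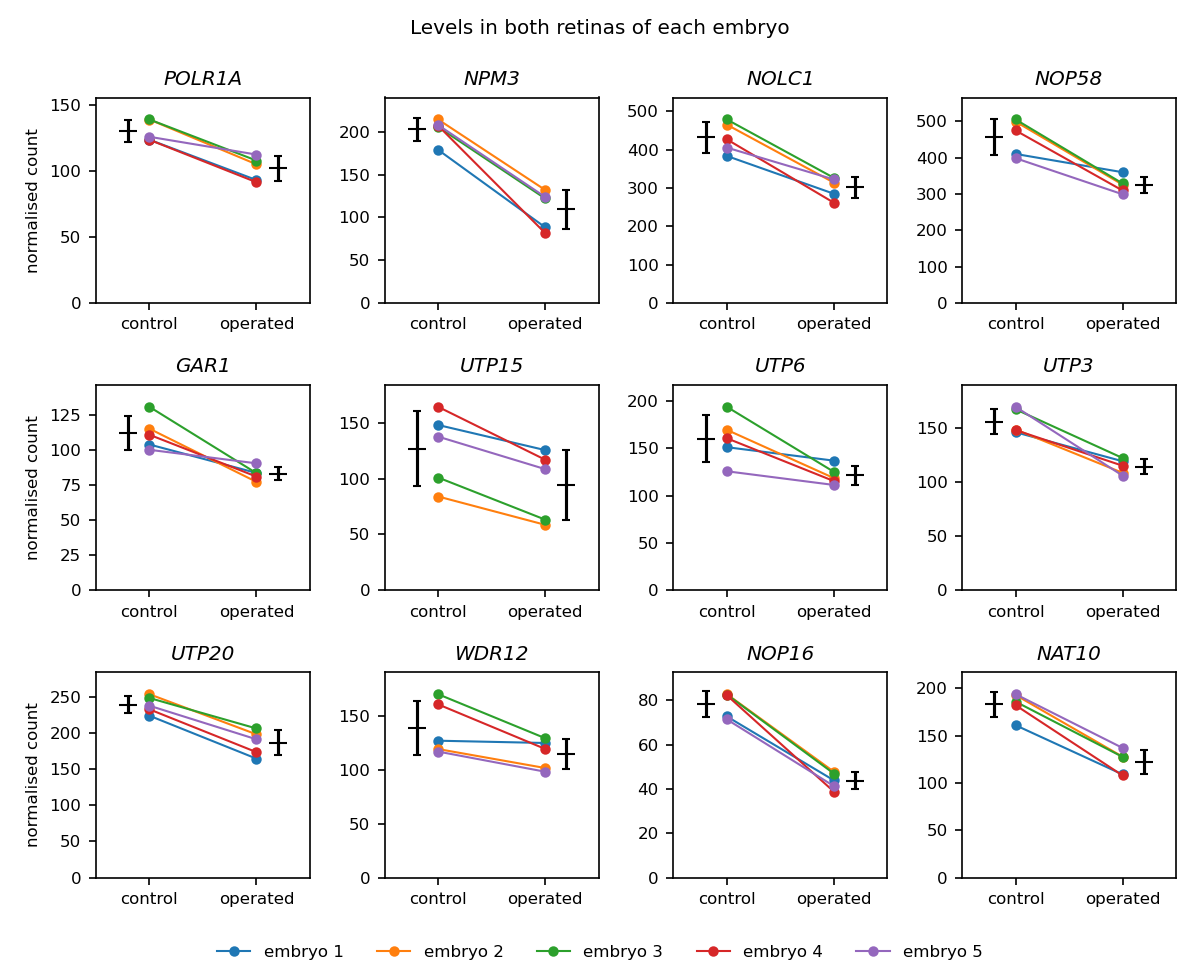
Normalised counts of 12 of the genes in the control and operated retina of each embryo, joined by a line, with mean and SD (n = 5) beside each group. Every line runs downwards, and UTP15 is low in both eyes of embryos 2 and 3.

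Large-subunit factors were counted in 2 groups. The PeBoW complex, which is needed to make the 28S and 5.8S ribosomal RNAs, had 1 of 3 genes lower. WDR12 was at 127, 119, 169.9, 160.5 and 117 in controls and 125, 101, 129, 119 and 98.1 after surgery (log2 change -0.26, SE 0.069, adjusted p = 0.026), lower in each pair with overlapping groups. PES1, pescadillo, was at 164, 152, 137, 152 and 198 in controls and 123, 141, 154, 135 and 168 in operated retinas (log2 change -0.15, SE 0.08, adjusted p = 0.2). It was higher in the operated eye of embryo 3 and did not pass. BOP1, its binding partner, was at 62.4, 51.5, 42.8, 48.99 and 101 in controls and 37.1, 60.9, 78.03, 62.5 and 87.8 in operated retinas (log2 change 0.10, SE 0.19, adjusted p = 0.72). BOP1 did not pass and went both ways, being lower in the operated eyes of embryos 1 and 5 and higher in those of embryos 2, 3 and 4. Of the other group 7 of 7 other large-subunit factors fell. NOP16, a factor of early large-subunit particles, was at 72.8, 82.8, 82.7, 82.3 and 71.4 in controls and 43.9, 47.8, 46.99, 38.8 and 41.3 in operated retinas. This was a fall of 43.7% (log2 change -0.83, SE 0.068, adjusted p = 0.00018) with the lowest p of the 54 genes. NOC2L stood at 141, 136, 140.2, 137 and 159 in controls and 111, 102, 122, 102 and 116 in operated retinas (log2 change -0.37, SE 0.059, adjusted p = 0.0038). RRP15, another factor of early large-subunit particles, was at 91.3, 119, 128, 108 and 103 in controls and 88.998, 82.5, 81.8, 73.5 and 77.5 in operated retinas (log2 change -0.43, SE 0.088, adjusted p = 0.0097). For all of NOP16, NOC2L and RRP15 the groups were separate. RRS1, which helps to bring in the 5S RNA, NOC3L, RRP1B and NOL8 fell by 0.33, 0.30, 0.30 and 0.27 on the log2 scale.

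Of 7 genes for enzymes that modify, unwind or trim the RNA and their cofactors, 5 fell. NAT10, which acetylates cytidines of 18S RNA, was at 161, 193, 186, 182 and 194 in controls and 109, 128, 128, 108 and 137 after lens removal (log2 change -0.59, SE 0.057, adjusted p = 0.00036). NOP2, a methyltransferase of 28S RNA, stood at 187, 198, 191, 176 and 229 in controls and 120.5, 132, 147, 113 and 159.6 in operated retinas (log2 change -0.55, SE 0.059, adjusted p = 0.00057). DDX21, an RNA helicase that works in the nucleolus, was at 256, 310.1, 321, 288 and 266 in controls and 205, 196, 203, 185 and 209.7 in operated retinas (log2 change -0.52, SE 0.071, adjusted p = 0.002). The operated and control libraries were apart for all of these. NOL12 fell by 0.50 on the log2 scale, and NOL9, a kinase of RNA ends in large-subunit processing, by 0.21. RRP8, a methyltransferase of 28S RNA, and MPHOSPH6, a cofactor of the exosome nuclease, had estimates of -0.17 and -0.27 (adjusted p = 0.21 and 0.070).

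The fall was present in every embryo. The number of the 54 genes lower in the operated eye was 50 in embryo 1, 49 in embryo 2, 47 in embryo 3, 52 in embryo 4 and 50 in embryo 5. Between 48.4% and 53.0% of all tested genes were lower in these pairs. The median log2 change of the 54 genes was -0.31, -0.37, -0.40, -0.43 and -0.32 in embryos 1 to 5, and that of all tested genes lay between -0.028 and 0.013. The mean log2 level of the 54 genes ran from 6.78 to 6.88 over the control libraries and from 6.40 to 6.57 over the operated ones. Complex by complex, 10 of the 11 groups had a negative median in 5 of 5 embryos, PeBoW being the exception with 0.17 in embryo 3. The falls of RNA polymerase I ranged from -0.22 in embryo 5 to -0.47 in embryo 4, and those of the chaperones and scaffold proteins from -0.34 in embryo 5 to -0.71 in embryo 4.

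**Figure D3:**
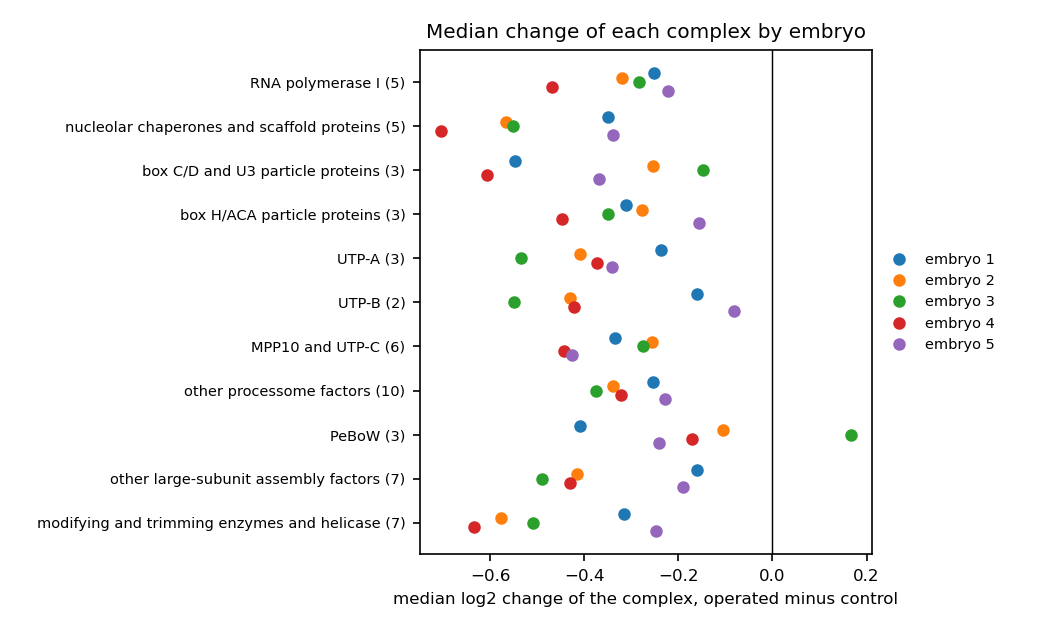
Median log2 change of the genes of each complex, operated minus control, in each embryo, with the number of genes in brackets. The points lie left of 0 in all embryos for every complex but PeBoW, and embryos 1 and 5 lie nearest to 0 in 7 of the 11 complexes.

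The changes of single genes were not alike in all pairs. Across the 54 genes, Pearson correlations of the log2 changes of 2 embryos ran from -0.44 (embryos 1 and 3) to 0.88 (embryos 2 and 3). Embryos 2, 3 and 4 had correlations of 0.71 to 0.88 with each other, while embryo 1 had -0.23, -0.44 and 0.18 with them and 0.46 with embryo 5. Across all 9076 genes the same correlations were 0.12 to 0.85. They describe genes of the same libraries, which are not independent, and no test was made. BOP1 and RRP12 had their lowest change in embryo 1 and their highest in embryo 3. The size of the change had little relation to the level of a gene (Pearson r = -0.11, Spearman rho = -0.23, over 54 genes in the same 10 libraries).

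Some levels differed between embryos in both eyes alike. POLR1E and UTP15, as given above, and NOL6, singled out after its values were seen, were low in both eyes of embryos 2 and 3. NOL6, a core of UTP-C, was at 149, 72.1, 69.4, 129.7 and 187 in controls and 87.3, 64.6, 72.7, 105 and 149.6 in operated retinas. Of NOL6 all 4 libraries of embryos 2 and 3 lay below all 6 of the other embryos, and the same held for POLR1E and UTP15. In the RefSeq gene table all 3 genes lie on the Z chromosome, which males carry as a pair and females singly. The labels do not give the sex of the embryos, and its part in these levels was not tested. The block for embryo takes such differences out of the comparison of the 2 eyes.

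**Figure D4:**
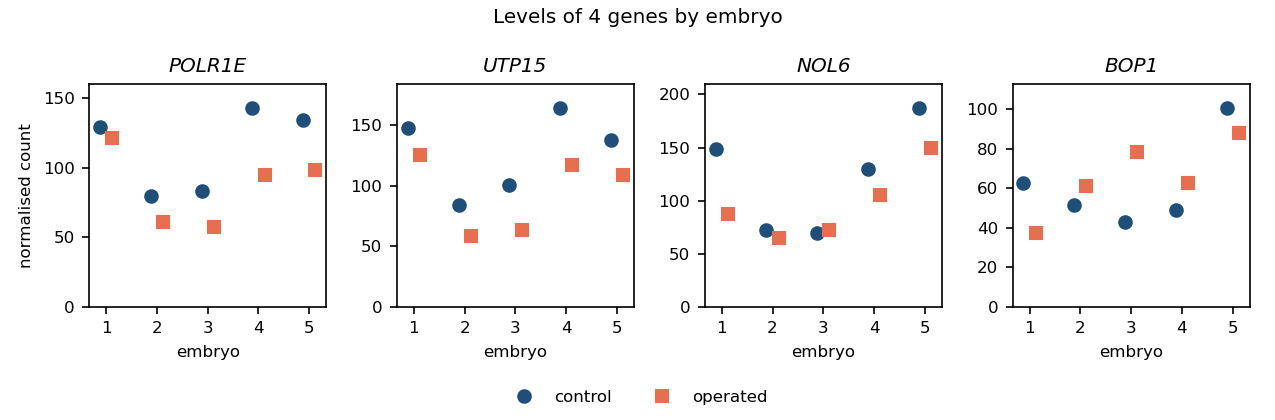
Normalised counts of POLR1E, UTP15, NOL6 and BOP1 by embryo, with control retinas as circles and operated retinas as squares. POLR1E, UTP15 and NOL6 are low in both eyes of embryos 2 and 3, and BOP1 is higher in the operated eye in embryos 2, 3 and 4 only.

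Genes of the same pathway outside the 54 were counted next, from lists of known factors. Like the 54 genes, these lists were chosen with earlier results of these data known. Some listed genes had no value. PELP1, EXOSC5, EXOSC6 and RPP14 had means below 10 and were not tested. PELP1, EXOSC5 and RPP14 were higher in the operated eye in 3 of 5 pairs and EXOSC6 in 2. Over the 111 tested genes of these lists 84 fell, 0 rose and 27 did not pass in the limma fit. At an unadjusted p under 0.05 limma had 96 of them lower and 0 higher. Their median log2 change was -0.34. Among all tested genes 12.3% were lower and 10.6% higher. At an unadjusted p under 0.05, 1813 of all 9076 were lower and 1586 higher. With the pigment, mesenchyme or haemoglobin markers as a covariate, 0, 1 and 31 of the 111 genes were called lower. Of all tested genes 0.0551%, 0.253% and 3.46% were lower in these fits. Of 33 other small-subunit factors 31 fell. EMG1, a methyltransferase of 18S RNA, went from 54.5 ± 5.17 to 33.1 ± 4.03 (SD, n = 5 per group), and WDR3 and PDCD11, both of the processome, changed by -0.50 and -0.46. Of 41 other large-subunit factors 31 fell, among them NLE1 (55.1 ± 6.77 to 34.9 ± 6.26 (SD, n = 5 per group)), the helicase DDX27 (-0.44) and SPATA5 (-0.44). GLTSCR2, an older symbol of NOP53, and RIOK3, a kinase of late small-subunit particles, had estimates of 0.03 and 0.05 and did not pass. Of 16 exosome and RNase MRP genes 10 fell, with the lowest p for EXOSC2 (-0.42), EXOSC7 (-0.43) and POP5 (-0.41). Of 8 assembly factors of small nucleolar particles 4 fell, with the lowest p for NUFIP1 (-0.44), TGS1 (-0.33) and RUVBL1 (-0.40).

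Initiation factors of RNA polymerase I were counted with subunits listed under other symbols. Of 13 other subunits and factors 8 fell. TWISTNB, also called POLR1F, a polymerase I subunit, went from 35.2 ± 3.67 to 25.7 ± 4.09 (SD, n = 5 per group) (log2 change -0.45). POLR2H and POLR2K, which all nuclear polymerases share, changed by -0.35 and -0.38, and TAF1D of the promoter selectivity factor by -0.45. UBTF, which binds the ribosomal DNA promoter, was at 197 ± 35.9 and 195 ± 30.02 (SD, n = 5 per group) (adjusted p = 0.95). TAF1A (-0.002, adjusted p = 0.99), TAF1B (-0.17, adjusted p = 0.15) and the initiation factor RRN3 (-0.12, adjusted p = 0.36) did not pass either. Nor did the subunit POLR2F (-0.23, adjusted p = 0.065). The factors TTF1 (-0.28, adjusted p = 0.017) and TCOF1 (-0.26, adjusted p = 0.027) were called lower. The difference between subunits and initiation factors was not tested.

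For comparison, the proteins of the finished ribosome were counted. Of 70 cytosolic ribosomal protein genes limma called 8 lower (11.4%) and 0 higher, against 12.3% lower and 10.6% higher among all tested genes, with 32 lower and 0 higher at an unadjusted p under 0.05. Of the 64 with a mean above 200, 7 were called lower, against 22.4% of all tested genes at that level. At the adjusted threshold the share called lower was thus not above the background. At an unadjusted p under 0.05 limma had 1813 of all 9076 tested genes lower and 1586 higher. The estimate was negative for 66 of the 70 ribosomal protein genes, against 4557 of all 9076. The median log2 change of the 70 genes was -0.14. Those with the lowest p were RPL38 (-0.33), RPL23 (-0.31) and RPL22 (-0.26). The difference from the nucleolar genes was not tested.

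**Figure D5:**
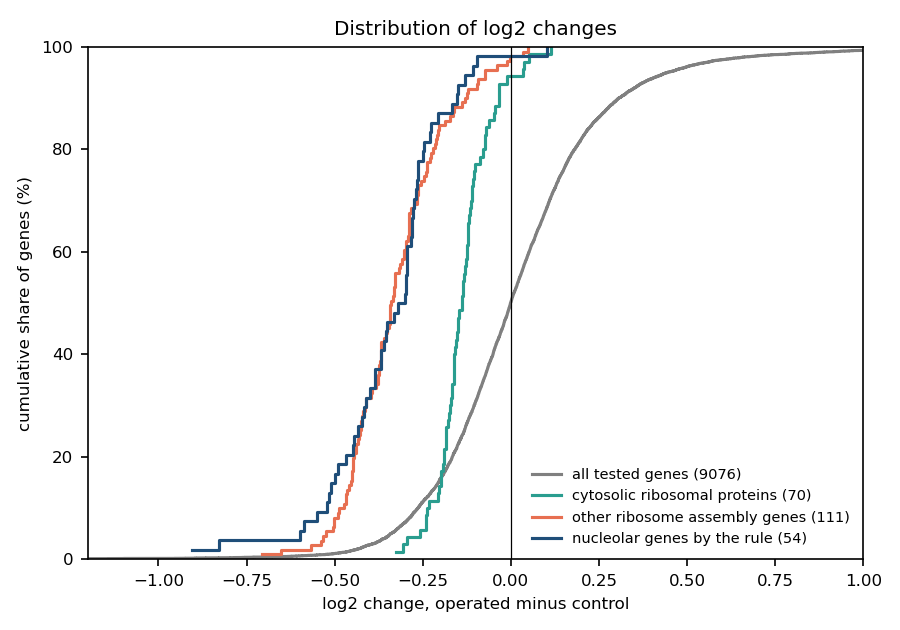
Cumulative share of genes by log2 change, operated minus control, for the 54 nucleolar genes, 111 other ribosome assembly genes, 70 cytosolic ribosomal protein genes and all 9076 tested genes. The curves of the nucleolar and other assembly genes lie close together around their medians of -0.31 and -0.34, and that of the ribosomal proteins steps up near -0.14.

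The nucleolar genes were read against genes of similar level, because the share of genes called lower rose with level. At a mean of 10 to 50, 7 of 10 nucleolar genes fell, against 7.39% of all tested genes there. From 50 to 100 it was 10 of 17 against 13.6%, from 100 to 200 it was 17 of 19 against 19.2%, and above 200 it was 7 of 8 against 22.4%. When the test was limited to a mean of 50 or more, 34 of 44 nucleolar genes fell and 17.6% of all tested genes were lower.

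The number of genes called lower changed when single embryos were left out. Each such fit also had fewer pairs, and the part of any single embryo was not tested apart from that. Without embryo 2, 24 of the 54 genes were called lower, against 4.15% of all tested genes. Without embryo 4 it was 21, against 3.32%, and without embryo 1 it was 41, against 16.2%. Of the 41 genes called lower without embryo 1, 37 were also called lower in the fit with all embryos. Without embryos 3 and 5 the counts were 35 and 32, against 8.2% and 9.17%. Across these fits the median log2 change of the 54 genes ran from -0.35 to -0.29. Of the 41 genes that fell, 21 passed with each embryo left out in turn.

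Markers of other tissues differed between the same libraries. Of 6 neural retina markers 5 were listed (PAX6, RAX, SIX3, SIX6 and LHX2), and they summed to 854 to 1089 in controls and 932 to 1022 in operated retinas. Within that list limma called PAX6 lower (log2 change -0.39, adjusted p = 0.0061) and RAX higher (0.73, adjusted p = 0.0031). SIX3, SIX6 and LHX2 did not pass. The mean log2 change of the neural retina list was -0.09, 0.31, 0.39, 0.30 and 0.04 in embryos 1 to 5. Of 14 pigment epithelium markers 10 were listed, with a summed level of 102 to 479 in controls and 109 to 184 in operated retinas. Of 15 periocular mesenchyme markers 8 were listed, with 56.8 to 218 and 61.9 to 92.4. Of 13 lens markers 4 were listed, with 77.5 to 123 and 93.9 to 155. Most of that sum was CRYBA4, with means of 86.7 in controls and 109 in operated retinas. It was higher in the operated eye in 5 of 5 pairs, and limma called it higher (log2 change 0.32, adjusted p = 0.012). CRYBA1, CRYGN and BFSP2 had means below 10 (1.27, 2.38 and 7.82) and were not tested. In the operated eye CRYBA1 and CRYGN were higher in 3 of 5 pairs, and BFSP2 was lower in 4 of 5. The 5 haemoglobin genes listed summed to 30.03 to 378 in controls and 111 to 319 in operated retinas. The mean log2 change of the pigment list was 0.08, -0.75, -0.44, -0.56 and -1.14 in embryos 1 to 5. That of the mesenchyme list was 0.25, -0.61, -0.54, -0.73 and -1.37. Both lists were thus lower in the operated eye in embryos 2 to 5, as the nucleolar genes were (medians of -0.31, -0.37, -0.40, -0.43 and -0.32 in embryos 1 to 5), and neither was lower in embryo 1. The haemoglobin list changed by -1.42 in embryo 5 and by 1.10 to 2.69 in the others. With the pigment list as a covariate 2 of the 54 genes, NPM3 and NOP16, were called lower, against 0.0551% of all tested genes. With the mesenchyme list it was 4 against 0.253%, and with the haemoglobin genes 17 against 3.46%. The median log2 change of the 54 genes in these fits was -0.32, -0.33 and -0.30. No listed marker was at 0 in any library. Beyond these fits the part of other tissues in the result was not tested.

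Some of the genes share their locus with others. In the RefSeq gene table of another chicken build, to which all 54 symbols matched, 20 of them overlap at least 1 other gene. For NCL, NOP56, NOP58, DKC1 and RRP12 the overlapping genes include short non-coding genes. Whether the counting used strand was not given, so reads of overlapping genes may be shared. The 7 tested partners of IMP3, POLR1B, POLR1C, RRP1B, RRP8, RRP9 and UTP3 did not pass (adjusted p from 0.097 to 0.93). The partners of BOP1, DDX21, GAR1, NCL and NOL11 that had values lay below a mean of 10 and were not tested. Those of NOL8, NOL9 and UTP11 had no value. The MPHOSPH10 entry overlaps 17 genes in that table, so its value is uncertain. Of its 12 tested partners 2 passed, TARSL2 with a log2 change of -0.28 (adjusted p = 0.032) and MYO1E with 0.42 (adjusted p = 0.015).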

How the data were processed

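The authors deposited 1 table of normalised counts per gene, a signal and not raw counts: its values are not whole, and library totals lie between 979286 and 1033240. Tools named in the submitters' processing notes, in no stated role, are HISAT2 (2.1.0), Subread (1.6.2) with featureCounts, SAMtools (1.9), Trim Galore (0.6.4) and FastQC (0.11.8), on GRCg6a. The sources used here do not give the scaling, the annotation or the use of strand. Stranded mRNA libraries were read as paired ends under 1 batch label, per the labels' protocols. Library sizes were inferred from the step between low values. Only 89.8% to 91.6% of values up to 400 reads were whole within 0.01, so no count model was used.

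Titles pair the retinas by embryo. Deviations of the 2 eyes from their group means correlated at 0.31, 0.76, 0.45, 0.68 and 0.59 in embryos 1 to 5. The test was limma (3.58.1, R 4.3.3), two-sided, with its variance prior following the mean level, on log2(value + 1) with embryo as a block, for genes with a mean of at least 10. Such changes understate those of low genes. The code was tested on simulated data. Tables and figures were made in Python 3.11.15.

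The members and lists were chosen with earlier results of these data known. The pattern as worded asks for a digit after POLR1 and so finds no subunit gene; POLR1A to POLR1E were taken for it. Values in every library are given for 3 genes of each complex in order of p and for NPM1, NCL, POLR1A and POLR1B (the rule also names FBL, which has no value here). Up to 3 called genes of each other list, in order of p, are named with means or log2 changes. NOL6, UBTF and the other genes named outside this rule were chosen after their values were seen. The result was recomputed at pseudocounts of 0.5 and 5, without the filter or with a minimum mean of 50, with trimmed-mean or quantile scaling, without the block, with a robust prior, with each of 3 marker lists as covariate and without each embryo. One further neural retina marker of the list is not reported here, and the summed level leaves it out.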

Additional observations from a re-analysis of the deposited data

Results flagged for a closer look

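For each of the 54 genes, the lowest or highest library of each group of 5 was compared with the others by the gap to its neighbour over the range of the group (Dixon's limit for 5 samples, 0.71). Of 108 groups 12 held such a library, and chance alone gives about 5%, or 5.4 of 108. Among the controls, embryo 5 stood highest for NCL (2645, others 1828 to 2013), RRP9 (80.8, others 57.8 to 62.2), UTP14A (118, others 83.9 to 92.7), RRP12 (83.4, others 48.1 to 57.3) and NOC2L (159, others 136 to 141), and lowest for UTP18 (78.6, others 88.5 to 92.4). The control of embryo 1 stood lowest for NPM3 (179, others 206 to 215) and NOL7 (61.7, others 79.0 to 84.6). Among the operated retinas, embryo 5 stood highest for NCL (2089.9, others 1593 to 1737) and lowest for UTP23 (15.9, others 20.5 to 21.8). The operated retina of embryo 3 stood highest for RRP7A (44.0, others 33.6 to 35.2) and that of embryo 1 for MPHOSPH6 (91.4, others 71.7 to 76.6). Without embryo 5, 32 of the 54 genes were called lower, against 9.17% of all tested genes.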

How the results depend on the processing

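With 16 alternatives run, the median log2 change of the 54 genes stayed between -0.35 and -0.29 and none of them was called higher. Under both pseudocounts, no filter, trimmed-mean scaling and the robust prior 41 were called lower, under quantile scaling 37, and 34 of 44 when only a mean of at least 50 was tested. Of all tested genes 10.1% to 12.4% were lower in the fits with 41, 11.9% under quantile scaling and 17.6% at a mean of at least 50. With no replicate block 30 were called lower, against 8.63% of all tested genes. Of the other pathway genes 84 were called lower in the fit reported. With a marker list as covariate the counts were 2 of the 54 and 0 of the other pathway genes (pigment epithelium), 4 and 1 (periocular mesenchyme) and 17 and 31 (haemoglobin); the cause was not tested, and each covariate uses up a degree of freedom. Leaving out 1 embryo gave 21 (without embryo 4) to 41 (without embryo 1) of the 54 genes and 41 to 87 of the other pathway genes. The share of all tested genes called lower was then 3.32% to 16.2%. The medians of the 54 genes were -0.35 to -0.29. Without embryo 2 the counts were 24 and 49, against 4.15% of all tested genes. NPM3 and NOP16 were called lower under all 16 alternatives, and 29 of the 41 genes under every alternative that kept all embryos and added no covariate and that tested the gene. The 5 embryos and the unseparated effects of lens loss and opening of the eye limit what these counts can show.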
